A study of Rattus norvegicus with 7 samples.

Results

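The metabotropic glutamate receptors examined here are the products of 6 genes, Grm2, Grm3, Grm4, Grm5, Grm7 and Grm8, followed in hippocampus and hypothalamus of rats whose diet contained DHA, docosahexaenoic acid, an omega-3 fatty acid of brain membranes. The genes were taken by symbol from the tables of both tissues. All 6 were found, out of 15805 symbols present in both tables, and each had 1 locus in each table. RNA was sequenced from male Sprague Dawley rats, 2 months old at assignment, that were fed DHA for 6 weeks. There were 4 libraries of hippocampus (DHA_hippocampus) and 3 of hypothalamus (DHA_hypothalamus). No genetic change or other agent is named in the labels, and all groups used here received DHA, so that no effect of the diet was estimated. Chow-fed rats were not analysed here. The labels do not say whether each library came from its own rat, nor whether both tissues came from the same rats.

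Metabotropic glutamate receptors are G protein-coupled receptors that respond to glutamate more slowly than the ion channel receptors and adjust excitability and transmitter release. They are sorted by sequence and coupling into group I, which signals through Gq, phospholipase C and calcium stores and is found mainly on the postsynaptic side, and groups II and III, which act through Gi/o proteins to lower cyclic AMP and often sit on presynaptic terminals, where they restrain release. Grm5 is the group I member examined here, Grm2 and Grm3 form group II, and Grm4, Grm7 and Grm8 belong to group III together with the retinal receptor Grm6. In hippocampus, Grm5 is known for its part in synaptic plasticity.

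Levels are FPKM, fragments per kilobase of transcript and scaled to library size, as the authors deposited them. Since FPKM is set per length, levels of different genes were compared within a library. Other differences between genes, such as in their annotation, were not assessed. Each tissue was deposited in its own table, and tissue and table cannot be told apart. For comparison between tissues, each library was therefore rescaled to a sum of 1000000 over the shared symbols, and no p-value was computed. With 4 libraries against 3, an exact two-sided permutation test could not have given a p below 0.0571. A receptor is called apart where its lowest library in one tissue exceeded its highest in the other. It is called at least 2-fold higher where, in addition, the means of log2(rescaled value + 1) differed by 1 or more.

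Summed FPKM ran from 370020 to 391349 over the hippocampus libraries and from 443335 to 471484 over the hypothalamus libraries, and the number of fragments behind them is unknown. The tissue labels matched their markers. All 5 hippocampal neuron markers (Neurod6, Slc17a7, Wfs1, Itpka, Prox1) were at least 2-fold higher in hippocampus, and all 7 hypothalamic markers (Oxt, Avp, Pmch, Hcrt, Pomc, Cartpt, Agrp) were so in hypothalamus. Replicate 1 of each tissue stood apart: 286 hippocampal and 182 hypothalamic loci were there under 0.1 times the lowest of the other libraries, against at most 11 and 2 in any other library. None of the 6 receptors was among these loci, and results are also given without replicate 1.

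Grm5, Grm2 and Grm3 were higher in every hippocampus library than in any hypothalamus library after rescaling, and for Grm4, Grm7 and Grm8 the hypothalamus libraries were all above the hippocampus libraries. The first 3 belong to groups I and II and the others to group III. Grm6, a group III receptor outside the 6, was apart towards hippocampus, but it was near the floor, at means of 1.01 and 0.378 FPKM. It met the minimum of 1 FPKM through its hippocampus mean alone and is not set against this division. Of all 10736 compared symbols, 28.2% were apart towards hippocampus and 24.4% towards hypothalamus, so that being apart was common. Differences of at least 2-fold were found for 1 receptor towards hippocampus, Grm5, and for 2 towards hypothalamus, Grm4 and Grm8. The same rule called 14.5% of compared symbols higher in hippocampus and 13.4% higher in hypothalamus. The median size of the difference, whatever its sign, was 0.94 on the log2 scale over the 6 receptors and 0.63 over all compared symbols. All 6 had passed the minimum mean of 1 FPKM in a tissue. Without replicate 1 of both tissues, 1 and 2 receptors passed the 2-fold rule. That 3 and 3 were apart there was given in advance, since leaving out libraries cannot make separate ranges overlap.

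**Figure D1:**
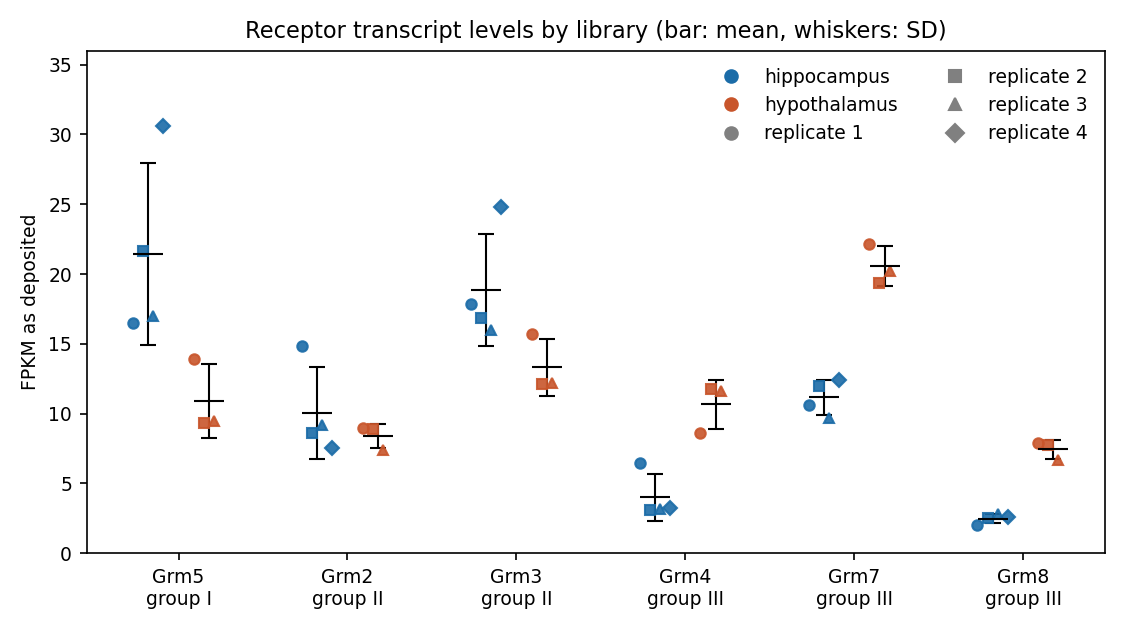
Deposited FPKM of the 6 receptors in each library, by receptor and tissue, with symbols for the replicates, the mean as a bar and the SD as whiskers (n = 4 hippocampus, n = 3 hypothalamus). Grm4, Grm7 and Grm8 sit higher in hypothalamus, Grm5 and Grm3 sit higher in hippocampus, and the Grm2 ranges overlap on this unscaled axis.

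Grm5 encodes the group I receptor mGluR5, which is tied to Homer scaffolds at the postsynaptic density and is also present on astrocytes. It read 16.5, 21.7, 17.0 and 30.6 FPKM in hippocampus replicates 1 to 4 and 13.9, 9.31 and 9.46 FPKM in hypothalamus replicates 1 to 3. Replicate 4 was the highest of the hippocampus libraries and replicate 1 the highest of the hypothalamus libraries, and the tissues did not overlap. The mean was 21.4 ± 6.53 FPKM (SD, n = 4) in hippocampus, while hypothalamus gave 10.9 ± 2.62 FPKM (SD, n = 3). In rescaled values the hippocampal mean was 2.41 times the hypothalamic one, a difference of 1.22 on the log2(value + 1) scale. With FPKM taken as deposited this difference was 0.89, which is under 2-fold, while the tissues stayed apart.

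Among the group II receptors, Grm3 encodes mGluR3, which is found on neurons and glia. Its level was 17.9, 16.9, 16.0 and 24.8 FPKM in hippocampus replicates 1 to 4 and 15.7, 12.1 and 12.2 FPKM in hypothalamus replicates 1 to 3. The lowest hippocampus library exceeded the highest hypothalamus library by a narrow margin. After rescaling, hippocampus lay between 46.6 and 71.0 and hypothalamus between 27.5 and 37.3, with a log2 difference of 0.77. With FPKM as deposited this difference was 0.46.

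Grm2 encodes mGluR2, a receptor of presynaptic terminals. It read 14.9, 8.58, 9.18 and 7.57 FPKM in hippocampus replicates 1 to 4 and 8.95, 8.87 and 7.41 FPKM in hypothalamus replicates 1 to 3. Hippocampus replicate 1 was high, and the other hippocampus libraries lay within or close to the hypothalamic range. Rescaled values ran from 21.7 to 43.2 in hippocampus and from 16.7 to 21.3 in hypothalamus, so that the tissues were apart by a margin smaller than the spread within either. The log2 difference was 0.49, and 0.29 without hippocampus replicate 1. The tissues overlapped with FPKM as deposited and with upper-quartile scaling, and also when loci sharing a symbol were summed before rescaling. The placing of Grm2 above in hippocampus is thus the least firm of the 6.

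Group III was led in abundance by Grm7, whose product mGluR7 lies at presynaptic active zones and has a low affinity for glutamate. Its level was 10.6, 12.0, 9.67 and 12.4 FPKM in hippocampus replicates 1 to 4 and 22.1, 19.3 and 20.2 FPKM in hypothalamus replicates 1 to 3. The hypothalamus libraries were all above the hippocampus libraries and varied little, with a mean of 20.6 ± 1.44 FPKM (SD, n = 3) against 11.2 ± 1.26 FPKM (SD, n = 4). The log2 difference after rescaling was −0.57, where a negative value means higher in hypothalamus, and it did not reach 2-fold under any of the 4 scalings tried.

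Grm8 encodes mGluR8, another presynaptic receptor, with a high affinity for glutamate. It read 2.00, 2.50, 2.81 and 2.60 FPKM in hippocampus replicates 1 to 4 and 7.87, 7.76 and 6.67 FPKM in hypothalamus replicates 1 to 3. The ranges were far apart and each was narrow. The hypothalamic mean of rescaled values was 2.44 times the hippocampal one. The log2 difference was −1.18 over all libraries and −1.05 without replicate 1 of both tissues.

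Grm4 encodes mGluR4, a group III receptor of presynaptic terminals. Its FPKM was 6.47, 3.06, 3.16 and 3.27 in hippocampus replicates 1 to 4 and 8.60, 11.8 and 11.6 in hypothalamus replicates 1 to 3. Replicate 1 stood apart in each tissue, high in hippocampus and low in hypothalamus, so that these libraries brought the tissues closer. The log2 difference was −1.11 over all libraries and −1.48 without replicate 1 of both tissues. Grm4 and Grm8 were at least 2-fold higher in hypothalamus under each of the 4 scalings, but neither was with a pseudocount of 5 in place of 1 (−0.89 for each).

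**Figure D2:**
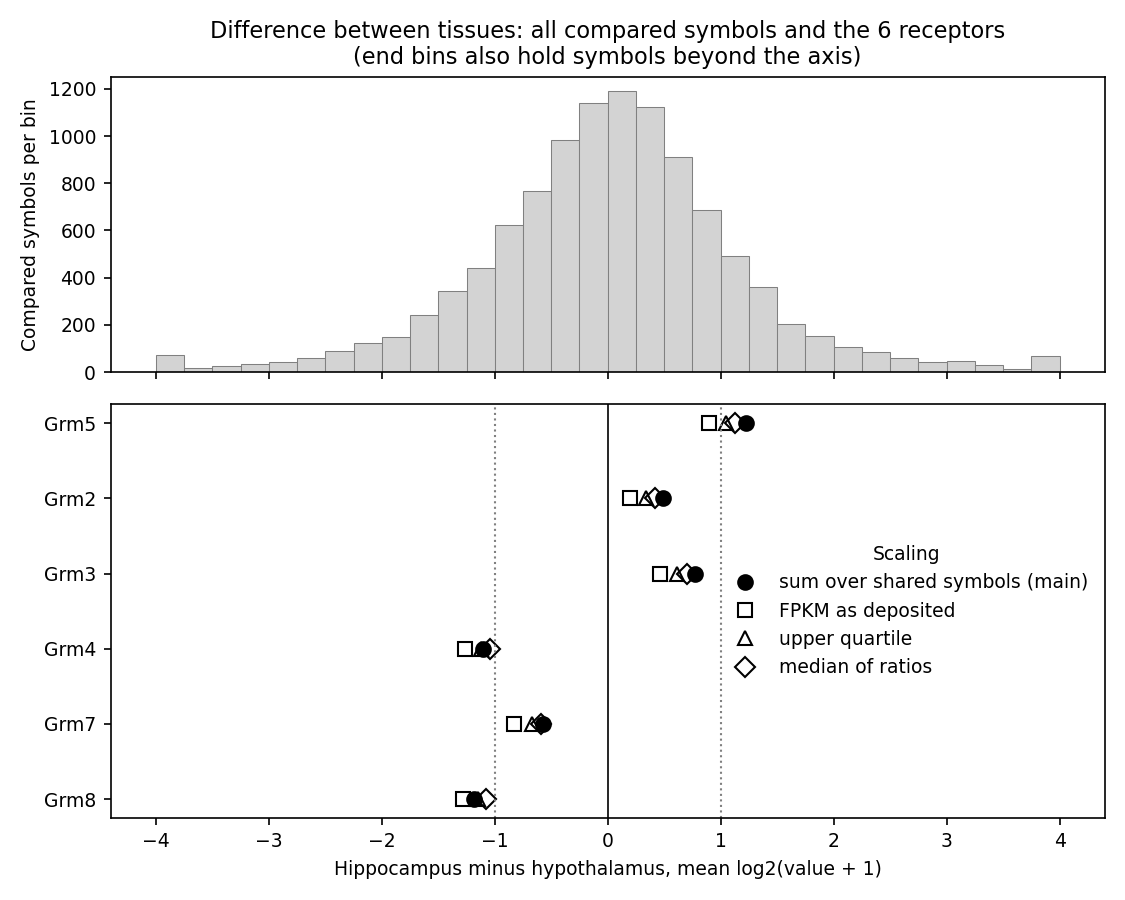
Above, the number of compared symbols in each bin of the difference between tissues (hippocampus minus hypothalamus, mean log2(value + 1)). Below, the differences of the 6 receptors under 4 scalings, with dotted lines at a 2-fold difference: Grm5, Grm2 and Grm3 lie right of 0 and Grm4, Grm7 and Grm8 left of 0 under each scaling.

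The choice of scaling shifted the differences, by amounts that varied between genes. The median difference of the compared symbols was 0.05 after rescaling and −0.21 with FPKM as deposited. Relative to that median, the deposited values gave 1.11 for Grm5, 0.41 for Grm2 and 0.67 for Grm3. On the same footing Grm4 stood at −1.05, Grm7 at −0.61 and Grm8 at −1.07. The sign of each receptor was the same under all 4 scalings.

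Within a library, the order of the receptors does not depend on scaling. In hippocampus the order of mean FPKM was Grm5, Grm3, Grm7, Grm2, Grm4, Grm8. Grm5 and Grm3 did not differ beyond their spread, as Grm5 was above Grm3 in 3 of 4 libraries. Grm7 and Grm2 did not either, with Grm7 above in 3 of 4. The ranges of Grm3 and Grm7 were apart, as were those of Grm2 and Grm4 and those of Grm4 and Grm8. In hypothalamus the order was Grm7, Grm3, Grm5, Grm4, Grm2, Grm8. Grm7 was first in all 3 libraries, with a range apart from that of Grm3, while the ranges of every later pair of neighbours overlapped. Grm3 was nonetheless above Grm5 in 3 of 3 libraries and Grm2 was above Grm8 in 3 of 3. Grm4 was above Grm2 in 2 of 3, and Grm5 was above Grm4 in 1 of 3, although its mean was higher. Grm8 had the lowest level of the 6 in each of the 7 libraries.

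Each receptor was also expressed as its share of the summed FPKM of the 6 within a library, a measure that does not depend on how the tables were scaled. Group III took 28.0%, 27.1%, 27.1% and 22.5% of the sum in hippocampus replicates 1 to 4, and 50.0%, 56.2% and 56.9% in hypothalamus replicates 1 to 3. Every hypothalamus library was thus at or above an even split and no hippocampus library approached it. The means were 26.2% ± 2.47 (SD, n = 4) and 54.4% ± 3.79 (SD, n = 3).

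Grm5, the group I receptor, held 31.2% ± 5.78 of the sum in hippocampus (SD, n = 4) and 15.2% ± 2.50 in hypothalamus (SD, n = 3). Group II held 42.7% ± 3.96 and 30.4% ± 1.43. Both shares were apart between the tissues, towards hippocampus. Within group II, the share of Grm3 was apart, at 26.1% to 30.5% in hippocampus and 17.5% to 20.3% in hypothalamus. The share of Grm2 overlapped, at 9.32% to 21.7% and 11.0% to 12.8%. These shares cover the 6 receptors alone and not the whole family.

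**Figure D3:**
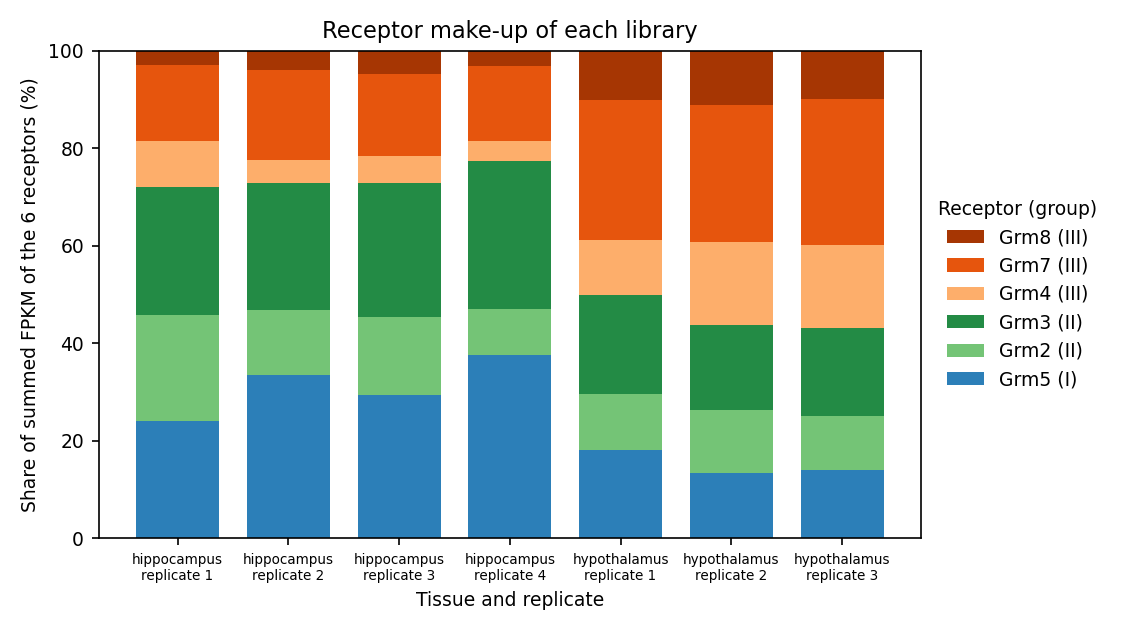
Stacked shares of the 6 receptors in their summed FPKM, in percent, with 1 bar for each library. The orange and brown segments of group III fill 22.5% to 28.0% of the hippocampus bars and 50.0% to 56.9% of the hypothalamus bars.

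The ratio of a pair of receptors within a library is likewise free of scaling. For the 9 pairs whose members were apart in opposite directions, the ratio had to be apart as well, and these ratios are given as a description. The ratio of Grm5 to Grm7 was 1.55, 1.81, 1.76 and 2.46 in hippocampus replicates 1 to 4 and 0.629, 0.482 and 0.468 in hypothalamus replicates 1 to 3. Grm5 thus exceeded Grm7 in every hippocampus library, and Grm7 exceeded Grm5 in every hypothalamus library. For Grm3 and Grm7 the turn was the same, with ratios of 1.41 to 1.99 in hippocampus and 0.605 to 0.708 in hypothalamus. The ratio of Grm2 to Grm4 ran from 2.30 to 2.90 in hippocampus and from 0.639 to 1.04 in hypothalamus.

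Of the 6 ratios between receptors that were apart in the same direction, 2 were apart between the tissues, those of Grm5 to Grm3 and of Grm7 to Grm8, both higher in hippocampus. The ratios of Grm5 to Grm2, Grm2 to Grm3, Grm4 to Grm7 and Grm4 to Grm8 overlapped. Without hippocampus replicate 1, 4 of the 6 were apart, and without replicate 1 of both tissues all 6 were. Leaving out any other library left 2 apart. Leaving out libraries can raise this number but not lower it. Hippocampus replicate 1 had the highest ratio of Grm4 to Grm8, 3.24, against 1.13 to 1.26 in the other hippocampus libraries.

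**Figure D4:**
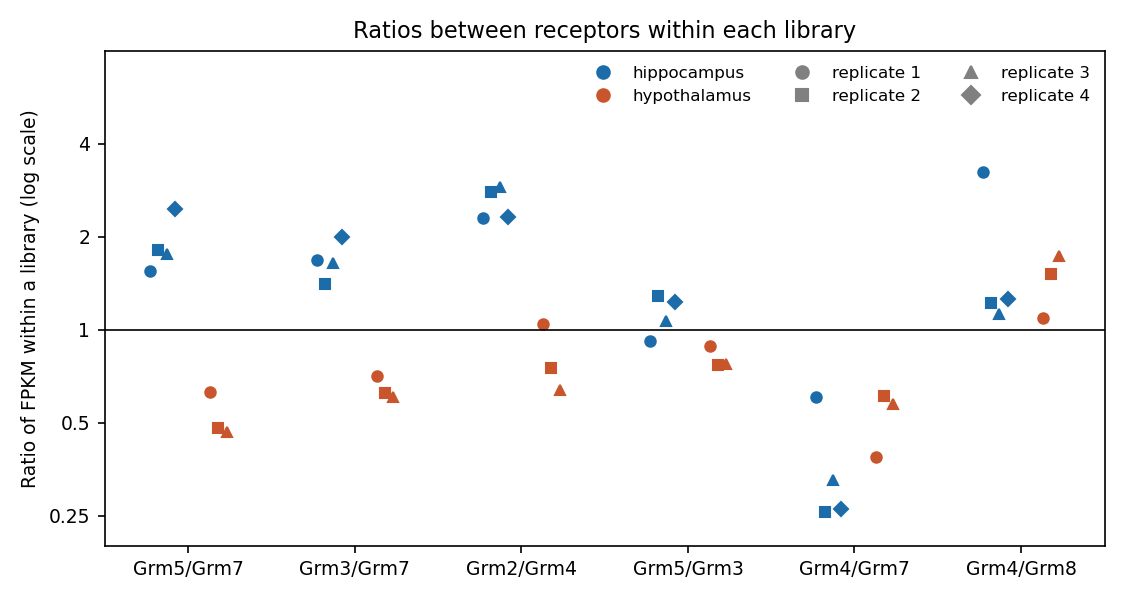
Ratio of FPKM between 6 pairs of receptors in each library, on a log scale, by tissue and replicate. The ratios of Grm5 to Grm7 and of Grm3 to Grm7 lie above 1 in all hippocampus libraries and below 1 in all hypothalamus libraries, and hippocampus replicate 1 departs from its tissue at Grm4/Grm7 and Grm4/Grm8.

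Within hippocampus the receptors differed in which library was high. Grm5 and Grm3 were highest in replicate 4, whereas Grm2 and Grm4 were highest in replicate 1. The SD among hippocampus replicates of log2(rescaled value + 1) was 0.49 for Grm4, 0.42 for Grm2 and 0.39 for Grm5, above the median of 0.25 over compared symbols, and 0.14 for Grm7 and 0.18 for Grm8, below it. The summed FPKM of the 4 general neuron markers (Snap25, Syt1, Rbfox3, Stmn2) was 1462, 1825, 1428 and 2339 in hippocampus replicates 1 to 4, highest in replicate 4. Rbfox3 of that list ran the other way, at 128, 78.6, 69.7 and 57.9 FPKM. The 5 astrocyte markers (Gfap, Aqp4, Aldh1l1, Gja1, S100b) summed to 1740, 1668, 1655 and 1241, lowest in replicate 4, with S100b and Gfap giving most of the sum. Aqp4 and Gja1 were instead highest in replicate 4, at 106 and 198 FPKM. None of these 9 markers was at 0, and their part in the receptor levels was not tested.

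In hypothalamus, replicate 1 was the lowest library for Grm4 and the highest for each of the other 5 receptors, by a small margin for Grm2 and Grm8. A list of 3 genes known from the adjoining thalamus (Tcf7l2, Prkcd, Slc17a6) summed to 127 FPKM in that library and to 52.9 and 45.2 in replicates 2 and 3. Each of the 3 was highest there: Slc17a6 at 78.1 against 27.4 and 27.5, Tcf7l2 at 17.0 against 9.03 and 9.43, and Prkcd at 31.5 against 16.5 and 8.27. In hippocampus the same list summed to between 22.0 and 36.5. Slc17a6, which gives most of the sum in replicate 1, is also known from glutamatergic neurons of the hypothalamus itself, and Prkcd overlapped between the tissues, so the sum does not measure thalamic tissue alone. Between the tissues, the general neuron list was higher in hippocampus after rescaling, with 4 of 4 genes apart and 2 of 4 at least 2-fold. With FPKM as deposited Snap25 and Syt1 stayed apart. Rbfox3 overlapped, at 57.9 to 128 in hippocampus and 49.1 to 73.5 in hypothalamus, and so did Stmn2, at 319 to 567 and 251 to 352. In the astrocyte list 2 of 5 genes were at least 2-fold higher in hypothalamus after rescaling and 3 overlapped. Whether these lists bear on the receptor differences was not tested, and in bulk tissue fewer cells of a type and less RNA per cell cannot be told apart.

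Genes that work with the receptors were examined by role, from lists of known partners and with Grm6, a further receptor of the family. Of 36 listed genes, 33 were in both tables with usable values, and Gnai3, Gnao1 and Elfn2 were not analysed here. By the 2-fold rule 22 of the 33 were higher in hippocampus, where the share of all compared symbols was 14.5%. Towards hypothalamus there were 2, where that share was 13.4%. The 22 include Grm6 and Shank2, which met the minimum of 1 FPKM through their hippocampus means alone. The median log2 difference of the 33 was 1.30, against 0.05 over compared symbols.

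The postsynaptic scaffold list was higher in hippocampus throughout, with 8 of 8 genes at least 2-fold, and 7 of 8 with FPKM as deposited. It holds the Homer proteins, which link group I receptors to calcium stores, the Shank proteins that bind Homer, Dlgap1 and Grasp, also called tamalin, which binds the tails of group I receptors. Homer1 averaged 38.6 ± 6.69 FPKM (SD, n = 4) in hippocampus against 3.99 ± 1.18 FPKM (SD, n = 3) in hypothalamus, a log2 difference of 3.46. Grasp read 20.9 ± 3.42 and 1.96 ± 0.0777 FPKM, a difference of 3.44. These differences exceed that of Grm5, at 1.22 on the same scale.

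Of 7 genes of the Gq arm, 4 were at least 2-fold higher in hippocampus and 1 in hypothalamus, with 4 and 2 as deposited. Itpr1, the calcium release channel opened by inositol trisphosphate, averaged 116 ± 20.7 FPKM in hippocampus against 16.3 ± 3.33 in hypothalamus, a log2 difference of 3.10. Dagla, which makes the endocannabinoid 2-AG from the diacylglycerol released by phospholipase C, read 45.3 ± 4.88 and 13.4 ± 5.50 FPKM, a difference of 2.10. The gene higher in hypothalamus was Plcb4, a phospholipase C isoform, at 11.2 ± 3.77 FPKM against 3.34 ± 0.447 FPKM in hippocampus. Plcb4 was singled out after its values were seen.

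In the Gi/o arm, through which groups II and III signal, 4 of 7 genes were at least 2-fold higher in hippocampus and 1 in hypothalamus, and 2 overlapped. With FPKM as deposited, and after scaling to the upper quartile, 2 of 7 were so in hippocampus, Kcnj3 and Kcnj6. Kcnj3, a subunit of the potassium channels that Gi/o proteins open, averaged 30.2 ± 3.84 FPKM in hippocampus against 9.62 ± 1.11 in hypothalamus, a log2 difference of 1.90. Gnai2, an inhibitory G protein subunit, went the other way, at 124 ± 24.5 and 408 ± 141 FPKM with a difference of −1.37. The channel subunits of this list therefore did not share the direction of the group III receptors.

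Among 6 binding partners, 3 were at least 2-fold higher in hippocampus and none in hypothalamus. With FPKM as deposited only Ncdn was so, 1 of 6, and under either other scaling 2 of 6 were, Ncdn and Cyth2. Ncdn, which encodes neurochondrin, a partner of mGluR5, averaged 619 ± 73.1 FPKM in hippocampus against 263 ± 47.3 in hypothalamus, and Cyth2 read 64.5 ± 3.93 and 34.9 ± 1.53 FPKM. Of the 4 genes of glutamate uptake, 2 were at least 2-fold higher in hippocampus. Slc1a1, a neuronal glutamate transporter, read 75.9 ± 10.0 and 23.9 ± 6.09 FPKM. Slc1a2, the main astrocytic transporter, read 672 ± 149 and 221 ± 33.5 FPKM. Kcnj3, Slc1a1 and Slc1a2 have more than 1 locus in a table, and the highest was taken. The same holds for other listed genes, among them Shank3, Dlgap1, Gnai1 and Kcnj9. With loci of a symbol summed, 20 of the 33 listed genes were at least 2-fold higher in hippocampus, in place of 22.

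Outside the 6, Grm6, the group III receptor known from retinal bipolar cells, read 1.01 ± 0.0781 and 0.378 ± 0.168 FPKM. It was apart towards hippocampus under all 4 scalings, but reached 2-fold only after rescaling to the shared sum. Grm6 was near the floor and met the minimum of 1 FPKM through its hippocampus mean alone, so nothing is drawn from its direction.

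**Figure D5:**
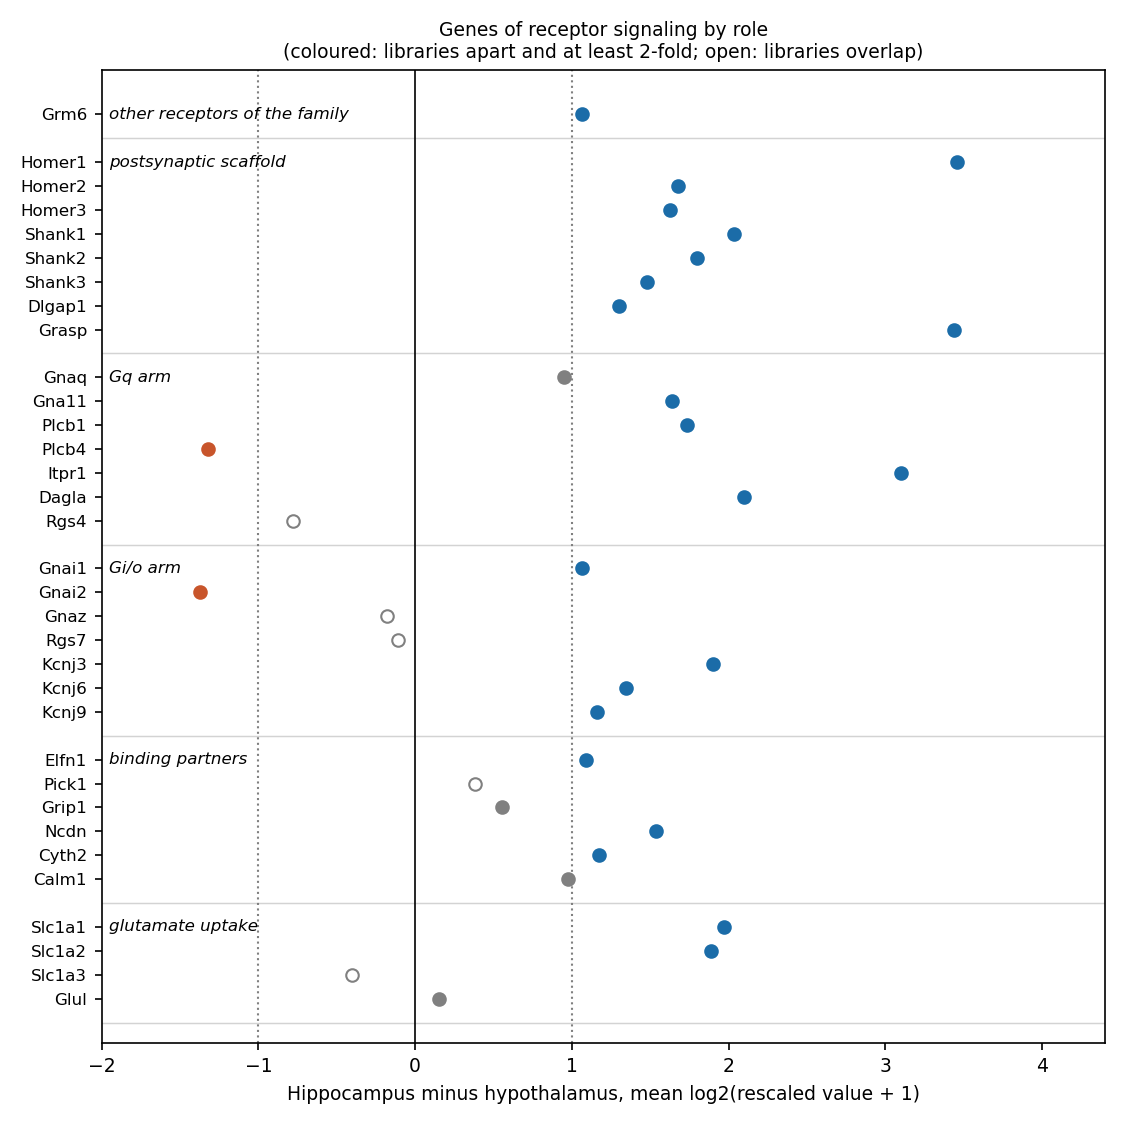
Difference between tissues (hippocampus minus hypothalamus, mean log2(rescaled value + 1)) for 33 genes of receptor signaling, by role. Coloured points are apart and at least 2-fold, open points overlap, and all 8 scaffold genes lie right of the dotted line at 1.

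The symbols whose pattern over the 7 libraries was most like that of each receptor were sought among 8897 symbols with 1 locus in each table, by Pearson r of log2(rescaled value + 1). These values are descriptive, since the 7 points share their tissues and libraries. For Grm5 they were Zfp367 and Sbno1 (r = 0.998 for each). For Grm3 they were Tmc5 (0.994) and Ubl3 (0.992), and for Grm2 they were Arl4d (0.983) and Ccdc22 (0.965). Among group III, Grm4 was closest to RGD1564093 (0.993) and Map1lc3a (0.988), Grm7 to Pkib (0.996) and Tlk2 (0.989), and Grm8 to Cd38 (0.996) and Itgb3bp (0.995). Map1lc3a read 144 FPKM in hippocampus replicate 1 against 54.0 to 66.4 in the other hippocampus libraries. It was picked for its likeness to Grm4 over these libraries, so the shared departure of replicate 1 comes with that choice.

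Promoter windows are shown for the receptors found in a RefSeq table of the assembly GRCr8, since Grm7 and Grm8 were both higher in hypothalamus and Grm5 was higher in hippocampus. Of the 6 receptors, 3 were found, and Grm2, Grm3 and Grm4 were not. Each window runs from 250 bases before to 50 bases after the annotated start, 5′ to 3′ along the gene. Capitals mark the GC box GGGCGG on either strand, which was searched along with the cyclic AMP response half-site TGACG and the TATA box TATAAA, also on either strand. The Grm5 window is chr1:150733503-150733802 (+ strand), that of Grm7 is chr4:145286476-145286775 (+ strand) and that of Grm8 is chr4:57687457-57687756 (− strand).
Grm5: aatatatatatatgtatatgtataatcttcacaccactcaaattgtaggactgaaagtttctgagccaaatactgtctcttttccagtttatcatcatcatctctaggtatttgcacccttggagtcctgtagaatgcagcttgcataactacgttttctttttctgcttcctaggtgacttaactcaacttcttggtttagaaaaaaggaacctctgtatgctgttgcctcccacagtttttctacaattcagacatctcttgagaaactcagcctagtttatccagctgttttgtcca
Grm7: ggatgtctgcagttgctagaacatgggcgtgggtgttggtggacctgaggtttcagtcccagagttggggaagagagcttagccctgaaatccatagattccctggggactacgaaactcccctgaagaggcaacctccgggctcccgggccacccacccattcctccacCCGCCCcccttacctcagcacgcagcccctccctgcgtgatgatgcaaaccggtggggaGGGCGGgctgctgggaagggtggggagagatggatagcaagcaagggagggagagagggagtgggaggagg
Grm8: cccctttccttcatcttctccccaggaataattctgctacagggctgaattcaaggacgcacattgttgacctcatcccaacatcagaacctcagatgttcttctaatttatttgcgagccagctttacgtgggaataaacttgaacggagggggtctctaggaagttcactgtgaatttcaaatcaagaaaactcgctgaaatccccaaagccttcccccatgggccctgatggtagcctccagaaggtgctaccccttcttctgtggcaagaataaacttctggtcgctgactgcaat

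The Grm7 window held 2 GC boxes, 1 on each strand, which do not overlap. The windows of Grm5 and Grm8 held none, and neither of the other motifs was in any of the 3. Of 33469 RefSeq windows of this length, 33.1% held a GC box, 21.2% the half-site and 14.2% the TATA box. The G and C content was 62.0% for Grm7, 47.3% for Grm8 and 37.3% for Grm5, against a median of 51.7% over the table, and the windows held 9, 6 and 1 CpG against a median of 7. The windows of the pair that was higher in hypothalamus thus differed from each other in these features. Which start sites were in use in these libraries is not known, and the deposited tables give no coordinates.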

How the data were processed

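Poly-A RNA of 4 hippocampus and 3 hypothalamus libraries was sequenced on an Illumina HiSeq 2000, per the labels' protocols. The authors deposited FPKM, 1 table per tissue. The submitters' processing notes name TopHat, TopHat2, Bowtie, Bowtie2, Cufflinks, Cuffdiff and the build rn5, without versions or roles. Annotation, strand setting and normalization between tables are not given in the sources used here, so reads of overlapping or antisense genes cannot be told apart.

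Loci not marked OK in every library of their tissue were dropped (86 and 24). Where a symbol had more loci, the one with the highest mean stood for it. The comparison covered symbols averaging 1 FPKM or more in either tissue, on log2(value + 1). Python 3.11.15, numpy 2.4.6 and pandas 2.3.3 were used. The 6 genes and all lists were chosen with earlier results of these data known. Named beside the 6 were, from each role list, the 2 genes with the largest difference, and for each receptor its 2 most similar symbols. Alternatives changed pseudocount, scaling, filters, loci and libraries. From the lists, 2 genes were left out of every count and are not reported here. Depth is unknown, so no counting error was computed.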

Additional observations from a re-analysis of the deposited data

Results flagged for a closer look

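Of 26 results examined over the 4 hippocampus libraries, 3 had a library set apart from the rest, judged by Dixon's ratio, which sets the distance from the nearest value against the full range, at its 95% critical value. Chance alone sets apart about 5% of groups. Grm4 was high in replicate 1, with a ratio of 0.940, at 6.47 FPKM against 3.06, 3.16 and 3.27. The group III share was low in replicate 4, with a ratio of 0.834, at 22.5% against 27.1%, 27.1% and 28.0%. Homer1, the scaffold gene, was high in replicate 4, with a ratio of 0.859, at 48.6 FPKM against 34.4, 35.1 and 36.4. Groups of 3 were not examined in this way.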

How the results depend on the processing

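As a replicate block, differences were taken within replicate numbers 1 to 3, an alternative chosen after seeing the data, with no test. They averaged 1.04 for Grm5, 0.61 for Grm2, 0.64 for Grm3, −1.04 for Grm4, −0.62 for Grm7 and −1.20 for Grm8, and Grm4 ranged from −1.60 to −0.12. By construction these means equal the differences without hippocampus replicate 4, so they are no separate check. The labels do not say that a number marks the same rat, and deviations of same-numbered libraries from their tissue means correlated at −0.08, −0.20 and −0.33 across 10736 symbols. Each of the 6 receptors kept its direction under the 17 other alternatives, with differences of 0.89 to 1.52 for Grm5, 0.19 to 0.61 for Grm2, 0.46 to 0.92 for Grm3, −1.48 to −0.89 for Grm4, −0.83 to −0.49 for Grm7 and −1.28 to −0.89 for Grm8. All but Grm2 stayed apart in each, and Grm2 stayed apart in 14. Where a receptor was apart over all libraries, leaving out libraries or changing the pseudocount or filter could change neither direction nor being apart. Only other scalings and other handling of loci could, and there Grm2 overlapped with FPKM as deposited, upper-quartile scaling and summed loci. With a pseudocount of 5, 0 receptors were at least 2-fold higher in hypothalamus. With FPKM as deposited, 0 were so in hippocampus, and over all symbols 928 were called towards hippocampus and 1819 towards hypothalamus, in place of 1560 and 1439. The pathway count towards hippocampus ran from 16, with FPKM as deposited, to 24.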
